A study of Drosophila melanogaster with 2 samples.

Results

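Twist binding was examined at 6 genes of cell adhesion and epithelial polarity, namely CadN, CadN2, shg, crb, ed and arm, out of 13968 annotated protein-coding genes. They were chosen by name as genes connected with the change of embryonic cells from an epithelial to a mesenchymal state, in which E-cadherin is replaced by N-cadherin, and all 6 were found in the annotation. Chromatin came from whole Drosophila melanogaster embryos of both sexes, 2 to 12 h old, of a transgenic line that stably expresses Twist (twi) with GFP fused to its C-terminus, and was precipitated with an antibody against GFP. There was 1 group, the twi-GFP embryos, with 2 biological replicates, and no other genotype, stage or antibody was analysed here. Peak lists hold 30000 peaks for each replicate and for both pooled, and 6516 peaks in the IDR list. IDR, the irreproducible discovery rate, is a measure that keeps peaks found at like ranks in both replicates, and the authors set its threshold. The lists hold no read counts, so sequencing depth is unknown. Every tissue of the embryo contributed chromatin, so a peak at one of these genes cannot be assigned to mesoderm, and the lists hold no measure of transcription.

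Classical cadherins are transmembrane proteins that hold neighbouring cells together through their outer repeats, while their inner tails bind beta-catenin and, through it, the actin cytoskeleton. During gastrulation the fly mesoderm folds inward, gives up its epithelial form and spreads. In these cells E-cadherin, the product of shg, is lost and N-cadherin, the product of CadN, takes its place. Twist is a basic helix-loop-helix activator at the top of this programme, and Snail, a zinc finger repressor, acts beside it on genes of the ectoderm. By this background CadN was taken as a gene gained in the mesoderm and shg and crb as genes lost from it, while CadN2, ed and arm were given no direction.

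By signal rank, the highest Twist summit of the 6 genes was at CadN. In the IDR list with windows of 10 kb, ed held more summits than CadN, and shg, ed, arm and crb held more per 10 kb. Other settings changed the order by count, with 13 summits at ed and 14 at CadN without replicate 1. They also changed the order by density of shg, crb and arm against CadN. A summit, the point of highest signal in a peak, was counted for a gene when it lay in the gene body or within 10 kb of it, and peaks were ranked within a list by the authors' signal value, rank 1 being the highest. CadN held 11 IDR summits with a highest rank of 22, and shg and crb held 5 and 3 with highest ranks of 2051 and 2494. Echinoid (ed) held 14 summits with a highest rank of 1385, arm held 3 with a highest rank of 4032, and CadN2 held 1, at rank 1408, which it shared with CadN. All 6 genes thus had an IDR summit in their window, where 63.7% of all protein-coding genes had one, so the count of 6 carries little by itself. By the highest rank, 0.537% of protein-coding genes had a summit ranked as high as that of CadN, against 34.6% for shg and 38.9% for crb. These shares take no account of length. By density, 37.6% of protein-coding genes had at least as many summits per 10 kb as CadN, against 7.55% for shg and 36.8% for crb. The window was 151.3 kb at CadN, 27.5 kb at shg and 39.5 kb at crb, and the median body of all protein-coding genes was 2.2 kb. A longer window has more places for a high rank, so rank and length cannot be told apart here. The highest ranks of shg and crb depended on the window, and with 20 kb on either side they were 947 at shg and 874 at crb, while with 1 kb that of shg was 4975. The highest rank was taken up as a measure after the data were seen. The figures for the genes without a direction were 24.9% for ed, 25.3% for CadN2 and 52.3% for arm.

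**Figure D1:**
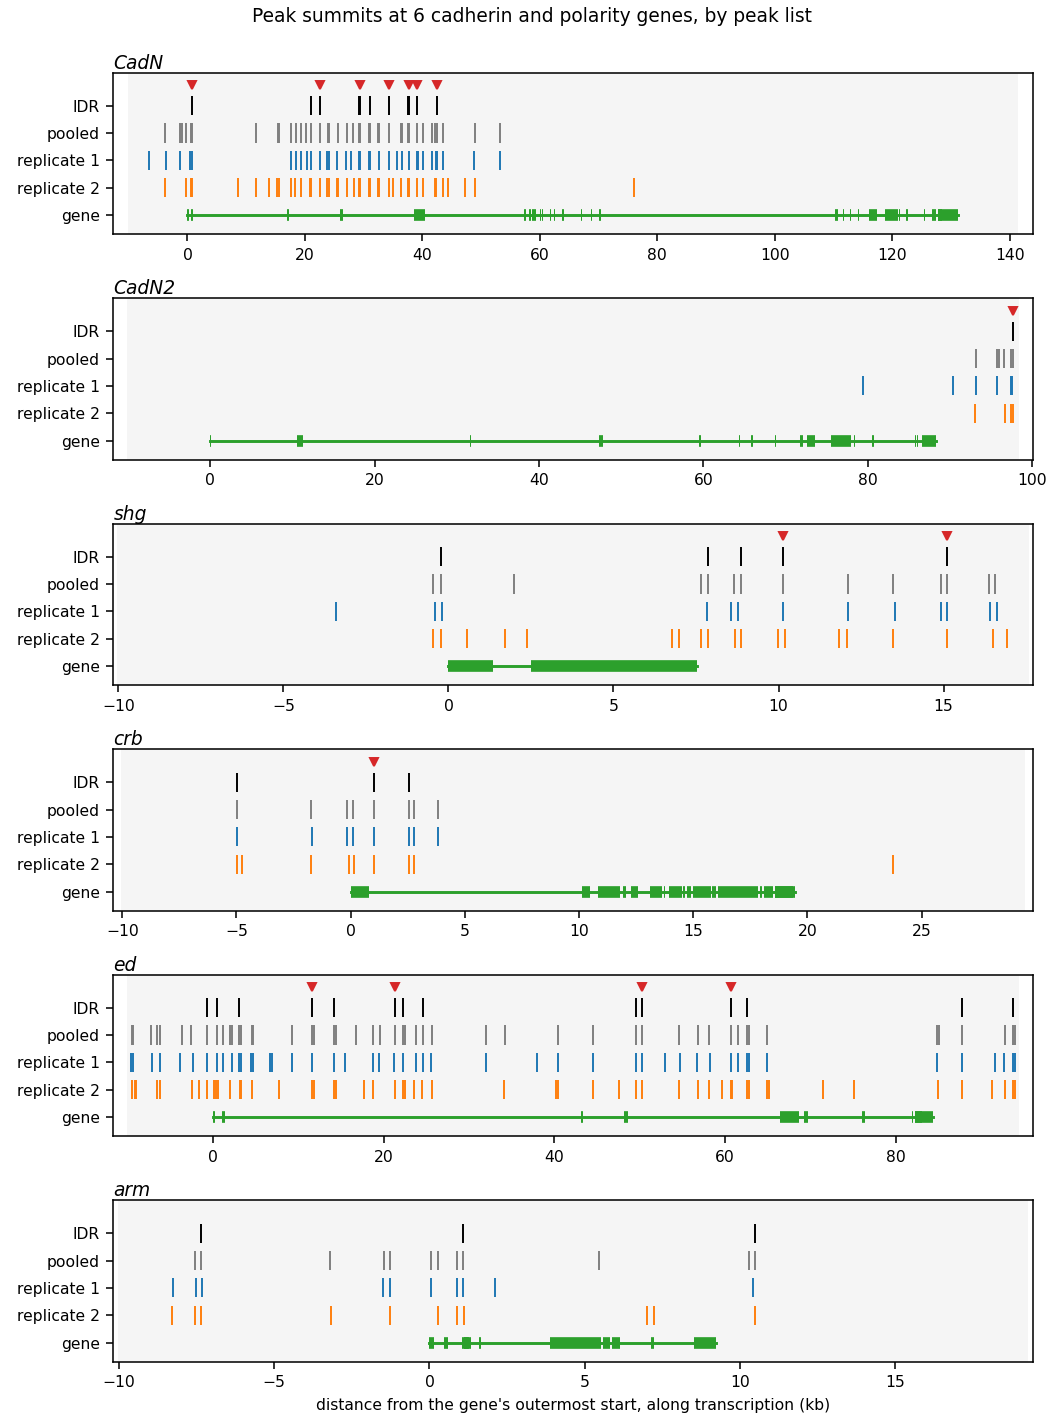
Each panel is 1 gene; the horizontal axis gives the distance from its outermost annotated start along the direction of transcription in kb, and each vertical tick is a summit of the list named at the left. Green blocks are exons, the shaded area is the gene with 10 kb on either side, and red triangles mark IDR summits with CATATG or CACATG within 50 bp. The 11 IDR summits of CadN lie in its 5' part, the body of CadN2 holds none, and the 5 of shg all lie outside its body.

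The sequences at highest-ranked summits are shown so that the E-boxes described with each gene, or their absence, can be seen. Each is the 101 bp centred on the summit, on the plus strand of dm6, and capitals mark E-boxes, any CANNTG, which are the sites of basic helix-loop-helix factors such as Twist. For crb the window in the gene body was added to the highest-ranked one after the data were seen. The summit that CadN2 shares with CadN and the summit in the body of arm lie at untranslated exons, and their sequence is not printed. No window of shg is printed either, and its highest-ranked summit held both CATATG and CACATG.
CadN, first intron of the inner transcripts, rank 22: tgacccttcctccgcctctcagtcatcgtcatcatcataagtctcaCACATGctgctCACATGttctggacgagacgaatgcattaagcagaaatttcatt
CadN, upstream of the inner start, rank 134: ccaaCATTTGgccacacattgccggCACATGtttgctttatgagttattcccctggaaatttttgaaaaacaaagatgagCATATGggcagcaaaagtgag
CadN, first intron of the inner transcripts, rank 480: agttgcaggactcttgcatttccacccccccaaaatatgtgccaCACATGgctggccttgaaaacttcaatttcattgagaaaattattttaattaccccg
ed, second intron, rank 1385: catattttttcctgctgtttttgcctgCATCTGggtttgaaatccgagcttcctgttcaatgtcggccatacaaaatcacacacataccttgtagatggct
crb, upstream at Uck, rank 2494: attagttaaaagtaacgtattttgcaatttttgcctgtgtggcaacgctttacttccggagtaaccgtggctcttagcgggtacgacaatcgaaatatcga
crb, first intron, rank 3084: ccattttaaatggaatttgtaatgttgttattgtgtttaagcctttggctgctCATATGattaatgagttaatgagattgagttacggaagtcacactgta
arm, downstream at mRpL16, rank 4032: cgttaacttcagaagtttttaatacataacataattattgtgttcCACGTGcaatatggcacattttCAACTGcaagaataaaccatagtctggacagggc
The windows of CadN lie on chromosome 2L at 17748861 to 17748961, 17755726 to 17755826 and 17740567 to 17740667, and that of ed on 2L at 4055887 to 4055987. Those of crb lie on 3R at 24290064 to 24290164 and 24296061 to 24296161, and that of arm on X at 1890095 to 1890195. All 3 windows of CadN held CACATG. The windows of ed and arm and the upstream window of crb held neither CACATG nor CATATG, while the window in the first intron of crb held CATATG.

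N-cadherin (CadN, FBgn0015609, chromosome 2L, 17647053 to 17778340, minus strand) has 12 annotated transcripts from 2 starts, and 11 of them begin at the inner start, at 17752346. Of its 11 IDR summits, 10 were nearest to that inner start and lay within 16438 bp of it, in a stretch of 21.4 kb. Of these, 8 lay downstream of the inner start and 2 upstream of it. The first intron of the inner transcripts, 12.2 kb long, held 6 of them. The 21.4 kb runs from the first to the last of these 10 summits, so its limits come from the same data. By this limit the 88.9 kb from there to the 3' end of the gene, with most of its exons, holds no IDR summit. It held 3 pooled summits, against 23 pooled summits in the 21.4 kb. The 21.1 kb towards the 5' end held 1 IDR summit and 9 pooled summits. Replicate 1 had 21 summits in the 21.4 kb, 4 in the 88.9 kb and 6 in the 21.1 kb, and replicate 2 had 22, 5 and 12.

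The strongest peak of CadN (2L, 17748444 to 17749404) spanned 961 bp and held 2 summits. The higher one ranked 22 in the IDR list, 35 in replicate 1 and 10 in replicate 2, and lay 3435 bp downstream of the inner start. Its sequence held 2 copies of CACATG with 5 bases between them, an arrangement of at least 2 copies within 50 bp that 4.63% of all IDR summits showed at any spacing. The lower summit of the same peak ranked 555 (694 in replicate 1 and 430 in replicate 2) and held CAGATG. The 6516 entries of the IDR list fall in 6205 distinct intervals, and 4.72% of these intervals had more than 1 summit.

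The next in rank lay 3430 bp upstream of the inner start (2L, 17755418 to 17756343), at rank 134 in the IDR list, 187 in replicate 1 and 93 in replicate 2, with a CACATG and a CATATG. The peak at 17740312 to 17740906 also held 2 summits, at ranks 480 and 5226. The higher of them ranked 751 in replicate 1 and 302 in replicate 2 and held CACATG, and the lower had no summit of replicate 1 within 100 bp and ranked 9514 in replicate 2. A summit 715 bp downstream of the outer start, in a 5' UTR of the single transcript that begins there, ranked 1408, with 2584 in replicate 1 and 764 in replicate 2, and held CACATG. The other 5 summits ranked between 2033 and 6446. One of these, at rank 6446, lay in a coding exon, and the rest lay in introns. Of the 10 summits of CadN found in both replicates, 9 ranked higher in replicate 2, where 49.6% of all IDR summits found in both did so.

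**Figure D2:**
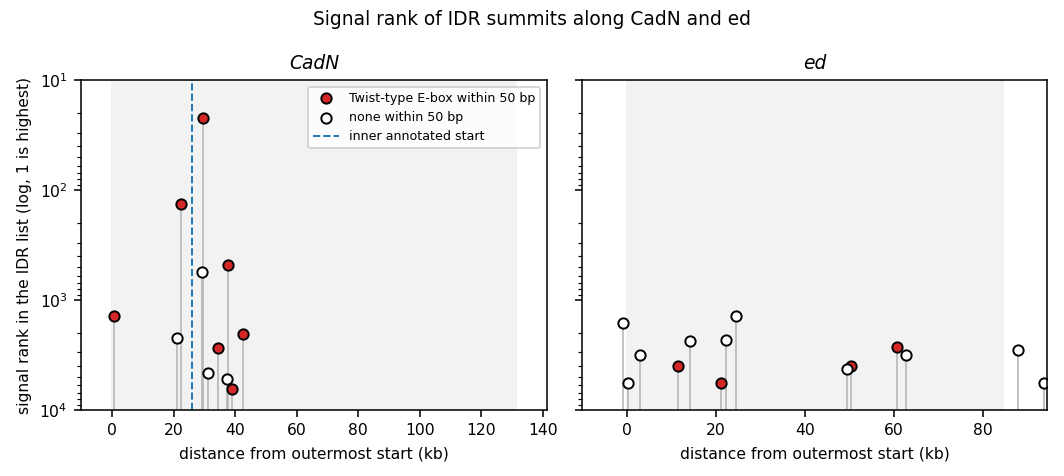
Points are IDR summits of CadN and ed, placed by distance from the outermost start in kb and by signal rank in the IDR list on a reversed log axis; the grey area is the gene body. Filled points have CATATG or CACATG within 50 bp (labelled Twist-type E-box), and the dashed line is the inner start of CadN. The 4 highest summits of CadN rank between 22 and 555. Its other summits, between 1408 and 6446, overlap the ranks of all summits of ed, 1385 to 5738.

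CadN2 (FBgn0262018, 2L, 17786971 to 17875247, minus strand), a second N-cadherin gene known in the fly from the targeting of photoreceptor axons, lies 8630 bp from CadN. Its body of 88.3 kb held no IDR summit and no pooled summit, and 1 summit of replicate 1 and none of replicate 2. Among the 119 protein-coding genes with a body at least that long, 61.3% had an IDR summit in the body and 71.4% had a pooled one. The only IDR summit in its window was the one near the outer start of CadN, 9346 bp beyond the 3' end of CadN2. Over the window CadN2 had 0.0924 IDR summits per 10 kb and CadN had 0.727, where the median of all protein-coding genes was 0.456. None of the 4 lists held a summit within 10 kb of either of the 2 annotated starts of CadN2.

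Echinoid (ed, FBgn0000547, 2L, 4031377 to 4115749, plus strand), an immunoglobulin-domain adhesion protein of adherens junctions, held the most summits, with 14 in the IDR list, 48 in replicate 1 and 53 in replicate 2. As many IDR summits were found at 0.186% of protein-coding genes, but its body of 84.4 kb is long, and by density 16.3% of genes had at least its 1.34 summits per 10 kb. The second intron, 41.7 kb long, held 6 summits and the fifth, 17.8 kb long, held 4, so that introns held 11 in all with the 1 in the first intron. The highest (2L, 4055703 to 4056121) ranked 1385, with 1978 in replicate 1 and 967 in replicate 2, and held CAGATG. The next, 739 bp upstream of the start, ranked 1616, with 1189 in replicate 1 and 3390 in replicate 2, and held no E-box. All 14 were found in both replicates. The ranks spread from 1385 to 5738, with none near those of the 4 highest CadN summits. The start nearest to 5 of the intronic summits was that of asRNA:CR44984, a non-coding gene inside ed, and the starts nearest to the 2 downstream summits belonged to the scavenger receptor genes Sr-CIII and Sr-CI.

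Crumbs (crb, FBgn0259685, 3R, 24295078 to 24314541, plus strand), a transmembrane protein that sets the apical side of ectodermal epithelia, held 3 IDR summits. The first intron, 9.3 kb long, held 2 of them, 1033 and 2564 bp downstream of the start. The nearer one ranked 3084, with 2707 in replicate 1 and 4755 in replicate 2, and held CATATG, while the farther one ranked 3393, with 3958 in replicate 1 and 2837 in replicate 2, and held no E-box. The highest of the 3, at rank 2494, with 2380 in replicate 1 and 3215 in replicate 2, lay 4964 bp upstream of crb and 58 bp from the start of Uck, a uridine-cytidine kinase gene. Without it, the highest rank at crb was 3084.

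E-cadherin (shg, FBgn0003391, 2R, 21049654 to 21057197, minus strand) had 5 IDR summits, none of them in its body of 7.5 kb. One lay 231 bp upstream of its start and 359 bp from the start of cpa, which encodes an actin capping protein subunit. It ranked 4975, with 4915 in replicate 1 and 6021 in replicate 2, and held no E-box. The other 4 lay downstream of the gene, between 325 and 7571 bp beyond its 3' end. The highest of these, and of the gene, ranked 2051, with 2151 in replicate 1 and 1929 in replicate 2, and held a CATATG and a CACATG; its nearest start was that of lncRNA:CR45148, 12042 bp away. At rank 2466 a summit held CAGGTG, an E-box type bound by Snail, and CAGCTG, and at rank 3133 a summit held CACATG 2 bp from its centre. The last, at rank 5812, held no E-box. All 5 summits were found in both replicates, and 4 of the 5 ranked higher in replicate 2.

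Armadillo (arm, FBgn0000117, X, 1891401 to 1900646, minus strand), the fly beta-catenin that joins cadherins to the cytoskeleton and carries the Wnt signal, had the lowest of the 6 genes' highest ranks, 4032. Its 3 IDR summits all lay within 500 bp of a start, where 39.5% of all IDR summits lay. The start was that of arm itself for the summit at rank 5544, 42 bp away, with 5186 in replicate 1 and 7031 in replicate 2. For the other 2, at ranks 4032 and 6272, the nearest starts were those of mRpL16, a mitochondrial ribosomal protein gene, 111 bp away, and of Edem1, 17 bp away. None of the 3 held CATATG or CACATG, and all 3 ranked higher in replicate 1. In the higher part of the lists, the 6516 highest peaks of each replicate, arm had 3 summits in replicate 1 and 1 in replicate 2.

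**Figure D3:**
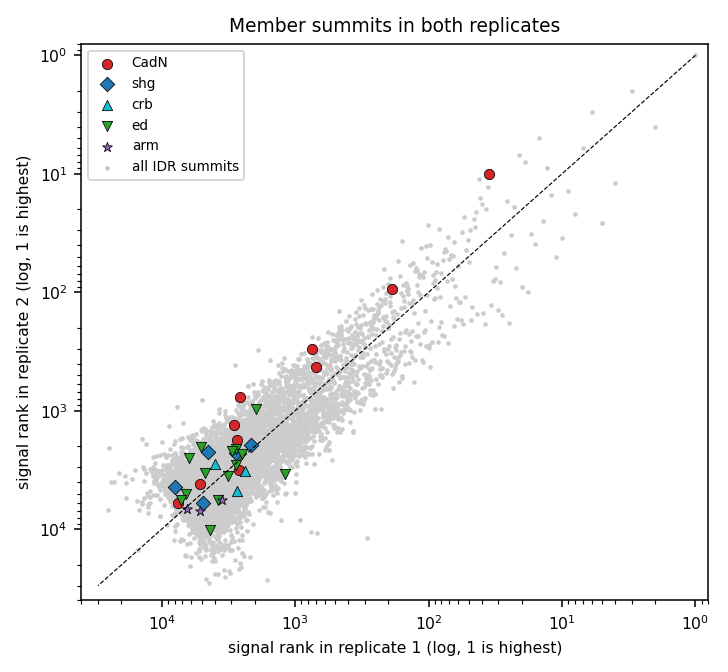
Each point is an IDR summit with a summit of both replicates within 100 bp, placed by its signal rank in replicate 1 and in replicate 2 on reversed log axes; grey points are all IDR summits and the dashed line marks equal ranks. CadN2 is not drawn because its summit is one of CadN. The 4 highest points among the members belong to CadN, at ranks of 35 to 751 in replicate 1 and 10 to 430 in replicate 2.

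The members' summits differed little between the replicates in presence. The 6 windows held 36 distinct IDR summits, and 35 of them had a summit of both replicates within 100 bp, or all but 1 at CadN; of all IDR summits 95.4% had both. Since the IDR list was built from the replicate lists, this share describes the list. The replicates also share their control file, so peaks that arise from it would appear in each. In the full lists every member had summits in both replicates, where 83.1% of all protein-coding genes had one in replicate 1, 80.1% in replicate 2 and 79.2% in the pooled list. CadN had 34 in replicate 1, 41 in replicate 2 and 39 in the pooled list, shg had 13, 19 and 14, and crb had 8, 9 and 8. For CadN2 the same lists gave 6, 4 and 6 summits, for ed 48, 53 and 50, and for arm 10, 11 and 12. Those of CadN2 in replicate 2 and the pooled list, and all but 1 in replicate 1, were counted at CadN as well. The pooled summits outside the IDR list numbered 28 at CadN, 9 at shg, 5 at crb, 5 at CadN2, 36 at ed and 9 at arm, and the highest of these, at CadN, ranked 6706 in the pooled list. The 5 at CadN2 are among the 28 at CadN.

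The gene gained in the mesoderm and the genes lost from it were then set side by side. All 11 summits of CadN lay in its body, against 2 of the 8 at shg and crb together. The body makes up 131.3 of the 151.3 kb of window at CadN, 7.5 of 27.5 kb at shg and 19.5 of 39.5 kb at crb, so the place of summits and the length of the gene cannot be told apart here. A summit in the body was found at 4 of the 6 members (CadN, ed, crb and arm). The share of all protein-coding genes was 13.2%, but their median body is 2.2 kb and the members' are 7.5 to 131.3 kb. Among genes at least as long as CadN2 the share was 61.3%, as given above. Of the members only CadN and CadN2 are that long, and no share was taken for genes as long as the others. None of the 11 at CadN lay within 500 bp of a start, against 2 of 8 at shg and crb, where 39.5% of all IDR summits did. The median rank was 2033 at CadN and 3108 at shg and crb. Density ran the other way, with 0.727 IDR summits per 10 kb of window at CadN, 1.82 at shg and 0.76 at crb. The difference of CadN from shg turned to the other sign when the gene body alone was counted, with 0.838 per 10 kb at CadN and 0 at shg. That from crb also turned, without replicate 1 (0.925 at CadN and 0.76 at crb), with the 3258 IDR summits of higher signal (0.529 and 0.507) and by nearest start (0.727 and 0.507). With the highest peaks of each replicate CadN had 10 summits in replicate 1 and 14 in replicate 2, shg had 4 and 6, and crb had 3 and 3. A contrast of 1 gene with 2 allows no test, so these values are descriptions.

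**Figure D4:**
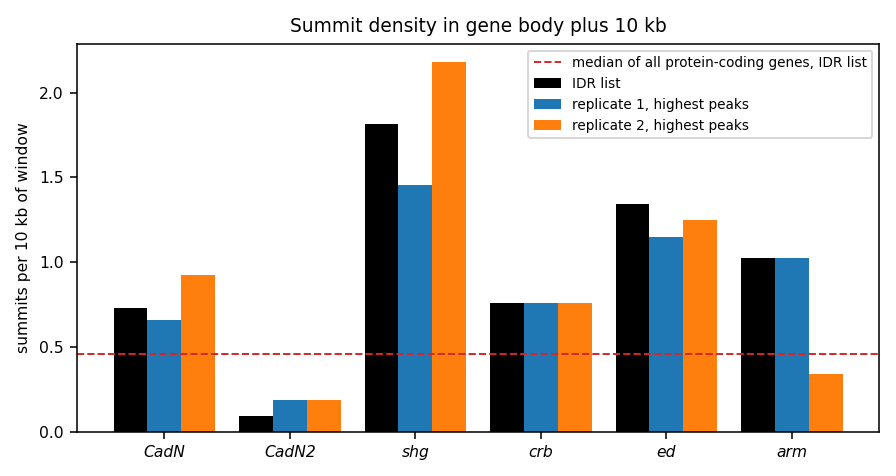
Bars give summits per 10 kb in the gene body plus 10 kb on either side, for the IDR list and for the 6516 highest-signal peaks of each replicate; the dashed line is the median of all protein-coding genes in the IDR list, 0.456. In the IDR list shg has the highest density, 1.82, and CadN2 the lowest, 0.0924; arm lies above the median in replicate 1 and below it in replicate 2.

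E-boxes of the types CATATG and CACATG, on either strand within 50 bp of the summit, were present at 14 of the 36 distinct summits, 38.9% (95% exact binomial interval 23.1 to 56.5%), where 28.2% of all IDR summits had one. CadN had one at 7 of 11 summits, 63.6% (30.8 to 89.1%), and shg and crb together at 3 of 8, 37.5% (8.52 to 75.5%). The genes without a direction had one at 5 of 18, 27.8% (9.69 to 53.5%), with the shared summit counted here again, at CadN2, and none at arm. The intervals cover counting error only. They overlap between these 3 sets of genes. At CadN 8 of the 11 summits were among the 3258 of higher signal, and neighbouring summits of 1 gene are not independent. CACATG made up most of these, at 13 of 36 summits (36.1% against 18.9% of all IDR summits), while CATATG was at 3 (8.33% against 11.6%). CAGCTG was at 6 (16.7% against 7.03%) and CAGGTG at only 2, in shg and in ed (5.56% against 2.73%). CAGATG was at 4 (11.1% against 10.3%) and CAATTG at 2 (5.56% against 3.73%). Lower than over all IDR summits were CAAATG at 1 (2.78% against 10.3%) and CAAGTG at 2 (5.56% against 7.95%). So were CAACTG at 1 (2.78% against 5.52%) and, by little, CACGTG at 1 (2.78% against 2.87%). Among the 3258 IDR summits of higher signal, 10 of the 21 at members held CATATG or CACATG, where 32.5% of all did. That share is inside the interval of CadN, but the interval is from all 11 of its summits. The 28.2% of all IDR summits is below its lower limit of 30.8%, a limit that takes the summits as independent. Only 6 of the 36 summits, 16.7%, lay within 500 bp of an annotated start, where 39.5% of all IDR summits did. Introns of the member held 22, or 11 at ed, 9 at CadN and 2 at crb, where 48.1% of all IDR summits lay in an intron of a protein-coding gene. The bodies of CadN and ed are long, so their windows hold much intron.

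The other genes of junctions and polarity were described from 5 lists with 37 genes, of which 31 had an IDR summit in their window, where 63.7% of all protein-coding genes had one, with a median of 0.355 summits per 10 kb, where all protein-coding genes had a median of 0.456. The counts by list rest on 5 to 12 genes each and are to be read against that same 63.7%. Neither the counts nor that share take account of length, and bodies in the lists reach 104.8 kb, at pyd, where the median of all protein-coding genes was 2.2 kb. Of 6 partners of classical cadherins 4 had one, a share near it. The strongest was at pyd, a scaffold protein of the junction, with 13 summits, the highest intronic at rank 27 (41 in replicate 1 and 16 in replicate 2), next to cno at 778, an actin-binding junction protein, and Vinc, the vinculin gene, at 3445. The partners alpha-Cat and jub had none. Of 12 other cadherins 11 had one, but no more than 3 summits each, led by Cad86C at rank 866, kug at 1143 and Cad96Cb at 1466, while Cad74A had none. The highest summits of Cad86C and kug were nearest to the starts of other genes, CG42394 and CG7668.

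All 7 genes of apical polarity had a summit in their window, where 63.7% of all protein-coding genes had one, led by aPKC at rank 492, par-6 at 1503 and Cdc42 at 2498, and each of these lay upstream of the gene and nearest to the start of another gene. Both sdt, whose product binds Crumbs, and baz had summits in the gene body, 2 and 4. The highest of each was intronic, at ranks 2823 and 3320, and that of baz was nearest to the start of TTLL1A. Of 5 genes of lateral polarity 4 had one, led by yrt at rank 167, scrib at 519 and dlg1 at 3813, the last without a summit of replicate 2 within 100 bp. The summit at yrt lay 187 bp from the start of the actin gene Act87E. Those of scrib and dlg1 were intronic, that of scrib being nearest to the start of lncRNA:CR46084, and cora had none. Of 7 septate junction genes 5 had one, also near the 63.7% of all protein-coding genes, led by Atpalpha at rank 1773, Cont at 2851 and pck at 2979, while sinu and kune had none. The highest summits of Cont and pck lay downstream of the gene and nearest to the starts of other genes, and neither gene had an IDR summit in its body. Of the 37 genes, pyd had the highest rank, 27, close to the 22 of CadN, and the next was the 167 of the window of yrt.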

How the data were processed

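The data were anti-GFP chromatin immunoprecipitation peak lists of 2 biological replicates of twi-GFP embryos, with replicate numbers from the labels. The authors deposited narrowPeak lists in dm6 coordinates, each replicate called with the same control file, a list of both replicates pooled, and an IDR list derived from these 3, per the file headers and records. The sources used here do not name an aligner or peak caller. Peaks were ranked by the deposited signal value, whose scale is not stated. Every IDR peak has the highest deposited −log10 q-value, which therefore gave no order. Labels give fragment sizes of 200 to 800 without a unit.

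Summits (start plus offset, 1-based) were assigned to Ensembl release 115 genes (transposable elements left out; 13968 protein-coding of 18277) with windows of 10 kb, and summits of the replicates were matched within 100 bp. Motifs were sought on both strands within 50 bp in the Release 6 assembly. One list entry was found through a synonym. Python 3.11.15, numpy 2.4.6, pandas 2.3.3, scipy 1.17.1 and matplotlib 3.10.9 were used, and the counting was checked on planted summits. No test between groups was possible with 1 group. Values over all genes are background, not tests. The members, lists and rules were chosen with earlier results of these data known. Named were all members and, of each list, the 3 genes with the highest-ranked summit and, where fewer than 5, those without any; sdt and baz were added after their values were seen. Alternatives were other windows, nearest start, the IDR summits of higher signal, each replicate left out (the 6516 highest peaks of the other), and other matching and motif windows.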

Additional observations from a re-analysis of the deposited data

How the results depend on the processing

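Over 17 results and 122 alternatives, 89 values kept their direction and stayed within the tolerance set for them, 29 moved and 4 turned. The 11 summits of CadN ranged from 8 to 14 over the alternatives run, and its highest rank was 10 without replicate 1 and 35 without replicate 2. The highest rank at shg, 2051, was 4975 with windows of 1 kb and 947 with 20 kb, that at crb, 2494, was 874 with 20 kb, and that at CadN2, 1408, was 764 without replicate 1 and 2584 without replicate 2. With the gene body alone, shg had 0 summits, CadN2 0 and arm 1; with windows of 1 kb, 2, 0 and 1; and with windows of 5 kb CadN2 had 0. Windows of 20 kb gave crb 6. By nearest start ed had 7, arm 1 and CadN2 0. With the 3258 IDR summits of higher signal, shg had 3, ed 8 and arm 0. Leaving out a replicate gave CadN2 2 summits either way, all of them counted at CadN as well. It gave arm 1 without replicate 1 and 3 without replicate 2. The density of CadN minus that of shg, -1.09 per 10 kb, was 0.84 with the gene body alone, -1.50 with windows of 5 kb, -0.56 with the IDR summits of higher signal, -0.73 by nearest start and -1.25 to -0.79 with a replicate left out. CadN minus crb, -0.03, was -0.24 with windows of 5 kb, -0.37 with 20 kb, 0.02 with the IDR summits of higher signal, 0.22 by nearest start, and 0.17 without replicate 1 and -0.10 without replicate 2, so these genes had no stable order. For settings that change the window or the list, the change follows from the summits they leave out or add. The share of summits with CATATG or CACATG ran from 36.1% to 47.6%, where all IDR summits ranged from 17.4% to 38.4%; with 25 bp it was 36.1% against 17.4%, and with 100 bp 41.7% against 38.4%. The ranks were added as a result after the data were seen. No paired analysis was possible because there was 1 group. Unknown depth limits all counts: a gene without a pooled or replicate summit may lie under the authors' limit on list length. The absence of an IDR summit can also come from their IDR threshold. Of the listed genes without an IDR summit, jub had 14 pooled summits, kune 13, Cad74A 4 and cora 2, while alpha-Cat and sinu had 0.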
